A study of Mus musculus with 12 samples.

Results

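The genes described here are 10 genes of the mouse liver, 9 of which encode enzymes of steroid or fatty acid metabolism. They are Cyp4a12a, Cyp4a12b, Hsd3b5, Hsd3b2, Hsd3b3, Srd5a1, Hsd17b2, Cyp17a1, Hao2 and A1bg, the last of which encodes a plasma protein and not an enzyme. They were chosen by symbol, as genes known to depend on the pattern of growth hormone secretion, and each matched 1 of the 41128 genes of the expression table. All 10 passed the filter of a mean normalized value of at least 10, as 11800 genes did in all. RNA was sequenced from the livers of 12 C57BL/6 mice at 6 weeks of age. Germ-free (GF) mice had stayed in sterile isolators, whereas conventionalized (CV) mice, their littermates, had been moved at weaning to cages with used bedding, a source of microbes, for 3 weeks. Each condition held 3 males and 3 females by the labels, with 1 library per mouse and no treatment or allele besides. All CV mice had themselves been germ-free until weaning, and no label gives the microbes acquired or the cage of a mouse.

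In the mouse, the pituitary releases growth hormone in pulses in males and more evenly in females. Hepatocytes read this pattern through the growth hormone receptor and the transcription factor STAT5B, with CUX2 as a repressor of male-biased genes in females, and many enzymes that modify steroids, fatty acids and drugs differ between the sexes in adult liver for this reason. No hormone was measured in these mice, so the pattern enters here only through the choice of genes. Such sex differences appear around puberty.

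The gene coordinates given throughout are those of GENCODE mouse release 21 on build GRCm38. RefSeq promoter sequences, each running from 250 bases before to 50 bases after a gene's start on build GRCm38.p6, matched 6 of the 10 genes at 7 start sites. The 4 printed here belong to the female-biased genes A1bg and Hao2 and to a pair of Hsd3b genes whose expression differed in pattern. Capitals mark matches to 3 motifs searched on both strands, namely the STAT5 motif TTCNNNGAA, the core ATCGAT bound by CUX2 and HNF6, and the HNF4 motif AGTCCA, which reads TGGACT on the other strand. All 4 genes lie on the minus strand, and the sequences read 5′ to 3′ along the gene.
A1bg, chr15:60921221-60921520: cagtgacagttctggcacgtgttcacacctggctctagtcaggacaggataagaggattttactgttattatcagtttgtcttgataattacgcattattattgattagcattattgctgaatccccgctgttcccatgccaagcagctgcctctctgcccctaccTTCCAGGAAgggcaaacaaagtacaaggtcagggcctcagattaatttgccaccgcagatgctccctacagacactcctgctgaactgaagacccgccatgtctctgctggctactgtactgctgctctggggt
Hao2, chr3:98893181-98893480: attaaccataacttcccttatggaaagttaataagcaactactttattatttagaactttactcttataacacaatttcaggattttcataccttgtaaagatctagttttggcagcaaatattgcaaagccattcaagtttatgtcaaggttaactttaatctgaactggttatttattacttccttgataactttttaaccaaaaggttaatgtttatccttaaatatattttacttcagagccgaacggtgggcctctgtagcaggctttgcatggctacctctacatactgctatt
Hsd3b3, chr3:98763079-98763378: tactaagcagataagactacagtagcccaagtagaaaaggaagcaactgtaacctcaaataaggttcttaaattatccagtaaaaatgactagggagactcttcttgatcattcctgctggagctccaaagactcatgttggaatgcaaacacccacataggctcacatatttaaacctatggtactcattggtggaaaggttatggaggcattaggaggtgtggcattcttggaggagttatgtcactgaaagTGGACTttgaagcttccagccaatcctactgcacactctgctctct
Hsd3b5, chr3:98645485-98645784: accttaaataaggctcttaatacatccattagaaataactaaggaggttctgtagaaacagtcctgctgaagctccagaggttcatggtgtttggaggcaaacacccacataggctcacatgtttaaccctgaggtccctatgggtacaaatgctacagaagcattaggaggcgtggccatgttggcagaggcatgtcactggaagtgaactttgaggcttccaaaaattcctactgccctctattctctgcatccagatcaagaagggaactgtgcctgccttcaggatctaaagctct

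The STAT5 motif was found in 1 of the 7 windows, that of A1bg, as TTCCAGGAA with its first base 84 bases before the start (position -84). It is present in 8.30% of all 32851 promoter windows. The HNF4 motif was found at both start sites of Hsd3b3, just after the start, and in 14.1% of all windows. ATCGAT was found in 0 of the 7 windows and in 0.925% of all windows. Such a match is a run of letters and says nothing of binding, and the enhancers at which STAT5B is known to bind may lie far from these windows. The RefSeq start of Hsd3b5 lies outside the gene in GENCODE (chr3:98618634-98630252), so its window may not be the promoter of the transcript counted. That of A1bg lies inside its gene in GENCODE (chr15:60896859-60923012) and not at the gene's edge, so the same holds for the window with the STAT5 motif.

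The libraries held 5993619 to 15290835 reads. The values are read counts divided by 1 size factor per library, so they compare a gene between libraries, and 1 read was worth 0.421 to 2.66 on this scale. In GF libraries 41.8 to 69.4% of the reads came from 7 abundant loci, among them both mitochondrial ribosomal RNA genes, against 5.39 to 21.9% in CV libraries, which left fewer reads for other genes in GF livers. The library labelled CV male 3 went against its label: it had 0 reads from 4 Y-linked genes and a value of 2382 for Xist, the RNA of the inactive X chromosome, which was at most 21.3 in the other 5 libraries labelled male. It is therefore shown apart and was left out of the tests, which used 11 libraries with 2 CV males, and values with it under its label are given beside the results whose call or direction it changes or whose size it moves most. Albumin, the defining product of hepatocytes, was at 47020 to 278958. Of 11 markers of steroid-producing glands, 5 (Cyp11b1, Cyp11b2, Nr5a1, Mc2r and Lhcgr) had 0 reads in every library, and the list summed to at most 34.0. Of the kidney markers, Umod, Kap, Slc34a1 and Slc12a1 had 0 reads in every library, and the list of 11 genes summed to at most 19.8.

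To ask which of the 10 genes differed between the sexes, males were compared with females within each condition with limma on log2(value + 1), a scale that understates the change of low genes. In GF livers 7 of 10 genes passed an adjusted p of 0.05, with Cyp4a12a, Cyp4a12b, Hsd3b5 and Srd5a1 higher in males and Cyp17a1, Hao2 and A1bg higher in females. In the same comparison 2.29% of all tested genes were called, 1.66% (196 genes) higher and 0.627% (74 genes) lower in males. In CV livers 6 of 10 were called, the same genes without Srd5a1, against 0.653% of all tested genes, 0.373% higher and 0.28% lower in males. Hsd3b2, Hsd3b3 and Hsd17b2 were called in neither condition. Scaled to all reads of each library, 9 of 10 genes were called in GF livers, with Hsd3b3 and Hsd17b2 added as higher in males, and over all genes the calls split into 1353 higher and 51 lower. Scaled to the reads outside the abundant loci, the 7 calls were kept and those over all genes split into 100 higher and 91 lower. Males and females did not overlap in 10 of 10 genes in GF livers, against 18.7% of all genes, and in 8 of 10 in CV livers, against 19.2%. Cyp4a12a, Cyp4a12b, A1bg and Hao2 had at least 1 group with a mean below 10 and passed the filter only through the groups in which they were high. With the library labelled CV male 3 counted as a male, 5 of 10 genes were called in GF livers, against 1.63% of all genes, with the same log2 differences and larger standard errors. In CV livers 1 of 10, A1bg, was then called, against 0.0594%.

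**Figure D1:**
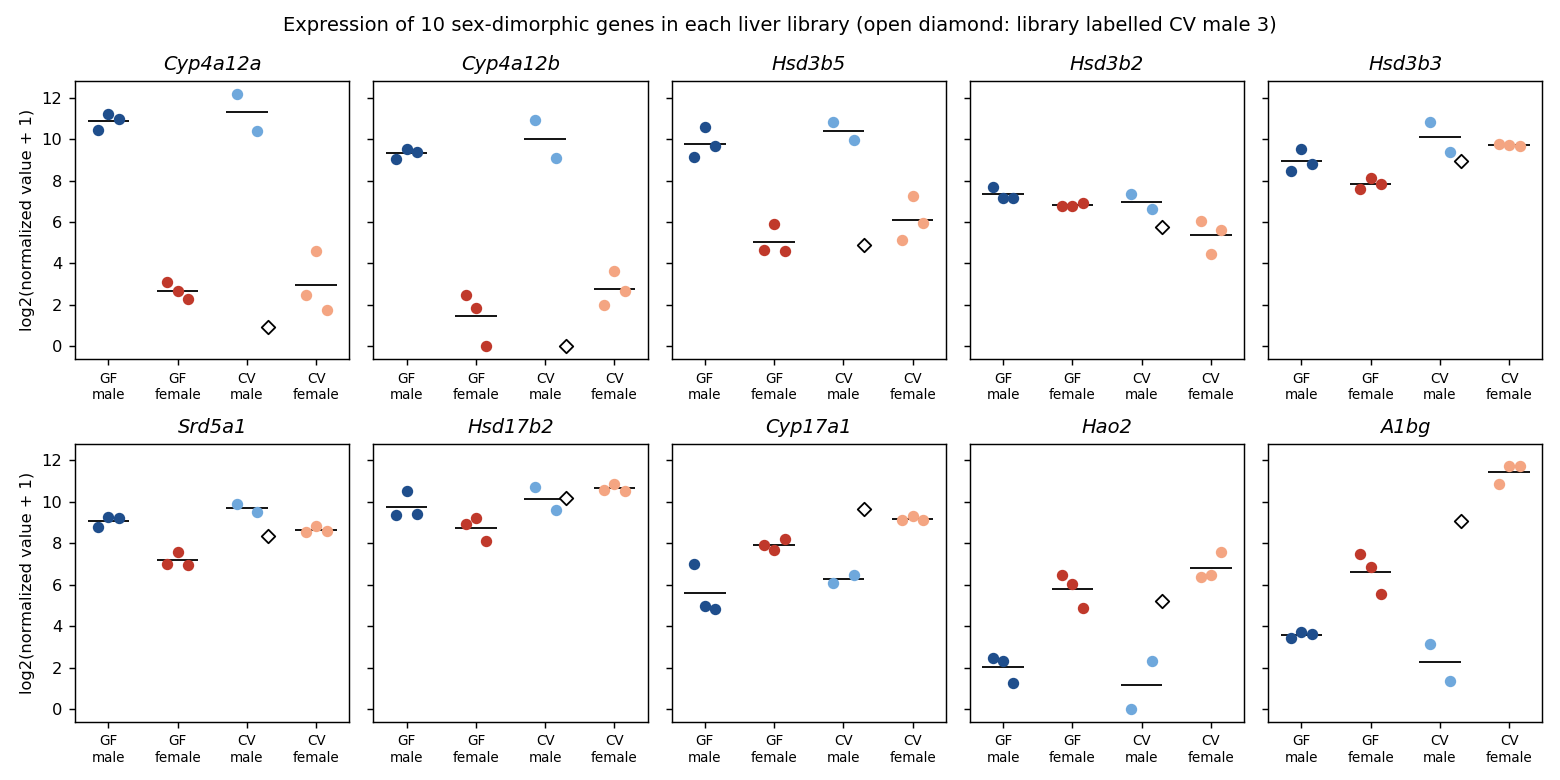
Normalized expression of the 10 genes in each liver library, as log2(value + 1), for GF males, GF females, CV males and CV females. Each point is 1 library, black lines are group means on the log2 scale, and the open diamond is the library labelled CV male 3, which is outside the means. Cyp4a12a, Cyp4a12b and Hsd3b5 are high in males, and Cyp17a1, Hao2 and A1bg are high in females. The diamond is nearer to the CV female mean than to the CV male mean in 9 of 10 panels, but within the CV female range in 1.

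Cyp4a12a and Cyp4a12b encode fatty acid omega-hydroxylases, which oxidize the terminal carbon of fatty acids and, in mouse kidney and liver, make the signaling lipid 20-HETE from arachidonic acid. The normalized values of Cyp4a12a (ENSMUSG00000066071, chr4:115299046-115332815, plus strand) were 1381, 2394 and 1985 in GF males and 7.55, 5.32 and 3.83 in GF females. They were 4664 and 1343 in CV males 1 and 2, and 4.63, 23.5 and 2.41 in CV females. Every male library other than CV male 3 lay far above every female library, and CV female 2 was the highest of the females. The reads behind the female values were few, 9 in all in GF females and 50 in CV females. The ratio of male to female normalized reads, pooled over the libraries of a group, was 319 (exact 95% counting interval 168 to 699) in GF livers. In CV livers it was 370 (281 to 499). Pooling gives deeper libraries more weight, and the ratio of the group means was 345 in GF and 295 in CV livers. On the log2 scale the difference was 8.20 ± 0.56 (SE, limma adjusted p = 6.23e-08) in GF livers and 8.33 ± 0.63 (adjusted p = 2.17e-07) in CV livers. Leaving out 1 library at a time gave 7.43 (without CV male 1) to 9.23 (without CV male 2) for the difference in CV livers. The sex difference of Cyp4a12a was not shown to depend on the condition (interaction 0.14 ± 0.84, 95% interval -1.64 to 1.91), and this interval is wide.

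Cyp4a12b (ENSMUSG00000078597, chr4:115411624-115439034, plus strand) had values of 528, 732 and 670.3 in GF males and of 4.53, 2.66 and 0 in GF females. In CV livers it was at 1907 and 546 in males 1 and 2 and at 2.94, 11.4 and 5.42 in females. As for Cyp4a12a, CV male 1 was the highest library and CV female 2 the highest female. Only 4 reads stood behind the 3 GF females, and the ratio of male to female normalized reads was 244 (95.3 to 898) in GF livers and 229 (163 to 333) in CV livers. The log2 difference was 7.87 ± 0.57 (limma adjusted p = 1.05e-07) in GF livers and 7.23 ± 0.64 (adjusted p = 1.66e-06) in CV livers. It was 7.15 in GF livers without GF female 3, the library at 0, and 6.33 and 8.13 in CV livers without CV male 1 and CV male 2. Neither gene passed between conditions. In females the difference was 0.28 ± 0.56 (95% interval -0.90 to 1.47) for Cyp4a12a and 1.32 ± 0.57 (0.12 to 2.52, limma adjusted p = 0.058) for Cyp4a12b, the latter being 1.83 (adjusted p = 0.0183) without GF female 1, 1.53 (adjusted p = 0.0432) without GF female 2 and 1.71 (adjusted p = 0.0283) without CV female 1, but 0.60 (adjusted p = 0.32) without GF female 3. In males it was 0.42 ± 0.63 and 0.68 ± 0.64, and it turned to -3.03 (limma adjusted p = 0.21) and -2.65 (adjusted p = 0.261) with the library labelled CV male 3. The interaction with that library was -3.32 (adjusted p = 0.567) for Cyp4a12a and -3.97 (adjusted p = 0.487) for Cyp4a12b, in place of 0.14 and -0.64. The transcripts of both genes are so alike that 48.9% of the 50-base stretches of Cyp4a12a also occur in Cyp4a12b, and how reads that match both were counted is not given in the sources used here. Cyp4a12b took 23.4 to 29.0% of the reads of the pair in the 5 male libraries, and the division between the copies is uncertain. Counting the library labelled CV male 3 as a male gave differences in CV livers of 4.88 (limma adjusted p = 0.845) for Cyp4a12a and 3.90 (adjusted p = 0.928) for Cyp4a12b.

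Hsd3b5, Hsd3b2 and Hsd3b3 lie side by side on chromosome 3 and belong to the 3-beta-hydroxysteroid dehydrogenase family. The enzyme of Hsd3b5 is a 3-ketosteroid reductase, which inactivates androgens such as dihydrotestosterone, and is a classical male-specific product of mouse liver, whereas the other 2 belong to the class that oxidizes and isomerizes 3-beta-hydroxysteroids. Hsd3b5 (ENSMUSG00000038092, minus strand) was at 554, 1530.4 and 804 in GF males and at 24.2, 58.5 and 23.0 in GF females. It was at 1815 and 975 in CV males 1 and 2 and at 33.6, 153.8 and 60.8 in CV females. The sexes did not overlap in either condition, and female 2 was the highest female in both. The log2 difference was 4.74 ± 0.49 (limma adjusted p = 1.10e-05) in GF livers, a 26.7-fold difference, and 4.27 ± 0.55 (adjusted p = 1.87e-04), or 19.2-fold, in CV livers. It was 2.43 (limma adjusted p = 0.928) when the library labelled CV male 3 was counted as a male. Between conditions the difference was 1.07 ± 0.49 in females (95% interval 0.03 to 2.11, adjusted p = 0.0737) and 0.60 ± 0.55 in males (-0.57 to 1.76, adjusted p = 0.442), and the latter turned to -1.24 (adjusted p = 0.378) with the library labelled CV male 3. The difference in females was 1.49 (adjusted p = 0.0169) without GF female 2 and 1.57 (adjusted p = 0.015) without CV female 1, but 0.49 (adjusted p = 0.406) without CV female 2. Hsd3b5 made up 47.6 to 63.5% of the summed values of the 3 Hsd3b genes in the 5 male libraries and 3.51 to 15.4% in the 6 female libraries.

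Hsd3b2 (ENSMUSG00000063730, chr3:98709255-98724543, minus strand) was at 202, 142 and 143 in GF males and at 109, 109 and 121 in GF females. In CV livers it was at 162 and 96.2 in males 1 and 2 and at 65.2, 20.8 and 48.2 in females. Males lay above females in both conditions, by 1.44-fold in the means of GF livers and 2.88-fold in those of CV livers, but the gene passed the test between the sexes in neither. The log2 difference was 0.51 ± 0.35 (95% interval -0.24 to 1.25, limma adjusted p = 0.467) in GF livers and 1.60 ± 0.39 (0.77 to 2.43, adjusted p = 0.0902) in CV livers. The latter was 1.94 (adjusted p = 0.0303) without CV female 1, and it also passed in edgeR, DESeq2 and limma-voom on recovered reads, but was 1.20 (limma adjusted p = 0.722) with the library labelled CV male 3 as a male. In females Hsd3b2 fell by 1.46 ± 0.35 on the log2 scale in CV relative to GF livers (limma adjusted p = 0.00226), with no overlap of the libraries. Scaled to all reads of each library, this difference was -0.66 (adjusted p = 0.151).

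Hsd3b3 (ENSMUSG00000062410, chr3:98741523-98763127, minus strand) was at 352, 736 and 444 in GF males and at 192, 277 and 226 in GF females. It was at 1833 and 654 in CV males 1 and 2 and at 860.1, 824 and 803 in CV females. The CV males lay on either side of the CV females, and CV male 1 was the highest of all libraries. The difference between the sexes was 1.08 ± 0.34 (95% interval 0.36 to 1.80, limma adjusted p = 0.116) in GF livers and 0.40 ± 0.38 (-0.41 to 1.21, adjusted p = 1) in CV livers. The former passed without CV male 1 (adjusted p = 0.0491) or CV male 2 (adjusted p = 0.0472), libraries that enter it only through the spread. Hsd3b3 rose in CV relative to GF livers by 1.85 ± 0.34 in females (adjusted p = 2.92e-04) and by 1.17 ± 0.38 in males (adjusted p = 0.0343). The rise in males was 0.43 (limma adjusted p = 0.532) without CV male 1, 0.94 (adjusted p = 0.130) without GF male 1, 1.10 (adjusted p = 0.0969) without GF male 3 and 1.91 (adjusted p = 0.00264) without CV male 2. It was 0.78 (adjusted p = 0.138) with the library labelled CV male 3. Of the 50-base stretches of Hsd3b3, 23.7% also occur in Hsd3b2, 12.9% in Hsd3b6 and 0 in Hsd3b5. Of those of Hsd3b5, 18.2% also occur in Hsd3b4. The division of reads between Hsd3b2 and Hsd3b3, and between each of the 3 genes and other members of the family, is therefore uncertain. All 3 Hsd3b genes also overlap Zfp697 on the opposite strand, which had 51 reads in all libraries together.

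**Figure D2:**
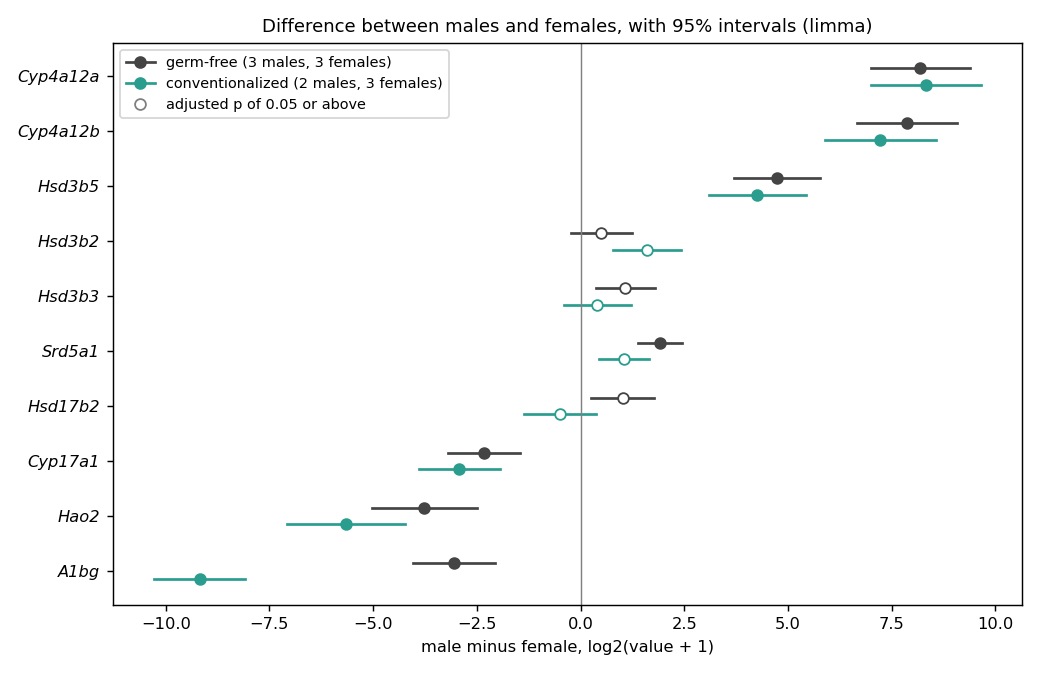
Difference between males and females in log2(value + 1) for each gene, with 95% intervals from limma, in GF livers (dark) and in CV livers (green, without the library labelled CV male 3). Filled points have an adjusted p below 0.05. Cyp4a12a is at 8.20 and 8.33 and A1bg at -3.05 and -9.18, and A1bg is the gene whose 2 intervals lie farthest apart.

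Srd5a1 encodes steroid 5-alpha-reductase 1, which reduces testosterone to dihydrotestosterone. Srd5a1 (ENSMUSG00000021594, chr13:69573449-69611442, minus strand) was at 441, 613 and 595 in GF males and at 128, 192 and 121 in GF females. It was at 954 and 720.3 in CV males 1 and 2 and at 366, 452 and 389 in CV females. Males lay above females in both conditions, and CV libraries of each sex lay above all GF libraries of that sex. The sex difference was 1.91 ± 0.25 (limma adjusted p = 2.30e-04) in GF livers, 3.77-fold, and 1.05 ± 0.28 (95% interval 0.45 to 1.64, adjusted p = 0.174) in CV livers, 2.07-fold. Whether these differ was tested by the interaction, which was -0.87 ± 0.38 (unadjusted p = 0.0358, limma adjusted p = 0.62) and did not pass. In females Srd5a1 rose by 1.47 ± 0.25 in CV relative to GF livers (adjusted p = 1.66e-04), and in males the difference was 0.61 ± 0.28 (adjusted p = 0.123). The sex difference in CV livers with the library labelled CV male 3 was 0.60 (limma adjusted p = 0.928) and the difference in males 0.16 (adjusted p = 0.746). The gene overlaps Nsun2 and Gm17108, and since it is not stated whether strand was used in the counting, a share of its reads may belong to them.

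Hsd17b2 encodes a 17-beta-hydroxysteroid dehydrogenase that oxidizes estradiol to estrone and testosterone to androstenedione. Hsd17b2 (ENSMUSG00000031844, chr8:117701904-117759027, plus strand) was at 665, 1449 and 684 in GF males and at 492, 601 and 270.3 in GF females. It was at 1655 and 779 in CV males 1 and 2 and at 1512, 1827 and 1489 in CV females. The GF groups were close to each other at their edges, and the CV groups overlapped. The sex difference was 1.01 ± 0.36 (95% interval 0.25 to 1.78, limma adjusted p = 0.157) in GF livers and -0.50 ± 0.41 (-1.35 to 0.36, adjusted p = 1) in CV livers. The interaction was -1.51 ± 0.54 (unadjusted p = 0.0132, limma adjusted p = 0.62) and did not pass. In females Hsd17b2 rose by 1.89 ± 0.36 in CV livers (adjusted p = 4.03e-04), 3.71-fold, whereas in males the difference was 0.38 ± 0.41 (-0.47 to 1.24, adjusted p = 0.508).

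Cyp17a1 encodes the 17-alpha-hydroxylase and 17,20-lyase of steroid synthesis, an enzyme mainly of gonads and, in many species, adrenals. Cyp17a1 (ENSMUSG00000003555, chr19:46667165-46673172, minus strand) was at 125, 30.6 and 26.9 in GF males and at 237, 202 and 289 in GF females. It was at 65.6 and 87.5 in CV males 1 and 2 and at 551, 631 and 561 in CV females. Females lay above males in both conditions without overlap, and GF male 1 was the highest male. The sex difference was -2.33 ± 0.41 (limma adjusted p = 0.0043) in GF livers, 5.01-fold, and -2.92 ± 0.46 (adjusted p = 0.00201) in CV livers, 7.57-fold. It was -3.02 in GF livers without GF male 1 and -2.72 (adjusted p = 0.0754) in CV livers without CV male 1. Cyp17a1 rose by 1.27 ± 0.41 in CV relative to GF females (limma adjusted p = 0.0157), although this was 0.65 (adjusted p = 0.272) when libraries were scaled to the reads outside the abundant loci. In males the difference was 0.67 ± 0.46 (adjusted p = 0.294), or 1.37 (adjusted p = 0.0124) without GF male 1 and 1.79 (adjusted p = 0.0588) with the library labelled CV male 3. With the library labelled CV male 3 as a male, the sex difference did not pass in GF livers (adjusted p = 0.0988) or in CV livers (-1.80, adjusted p = 0.865), nor did the difference in females (adjusted p = 0.125). Of the 11 gland markers, Star was read in all 12 libraries (4.16 to 31.3, 147 reads in all), Insl3 had 19 reads and Cyp11a1 4, while the 5 named above had 0. Their part in the values of Cyp17a1 was not tested.

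Hao2 encodes a peroxisomal oxidase of 2-hydroxy acids, with long-chain hydroxy fatty acids among its substrates. Hao2 (ENSMUSG00000027870, chr3:98874521-98893239, minus strand) was at 4.48, 3.99 and 1.42 in GF males and at 86.0, 63.8 and 28.8 in GF females. It was at 0 and 3.98 in CV males 1 and 2 and at 82.4, 86.7 and 191 in CV females. Every female library lay above every male library of the fit. The ratio of female to male normalized reads, from 9 male reads in GF and 5 in CV livers, was 17.6 (8.89 to 39.7) and 74.0 (31.5 to 229). The log2 difference was -3.77 ± 0.60 (limma adjusted p = 0.00146) in GF livers and -5.65 ± 0.67 (adjusted p = 7.12e-05) in CV livers. The latter was -4.49 without CV male 1, the library at 0, and -6.81 without CV male 2. It was -4.30 (limma adjusted p = 0.120) with the library labelled CV male 3 as a male. In females the difference between conditions was 1.02 ± 0.60 (95% interval -0.24 to 2.29, adjusted p = 0.155) and in males -0.86 ± 0.67 (-2.27 to 0.56, adjusted p = 0.358), the latter being -2.02 (adjusted p = 0.0449) without CV male 2 and 0.50 (adjusted p = 0.699) with the library labelled CV male 3.

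A1bg encodes alpha-1-B glycoprotein, a secreted plasma protein of the immunoglobulin superfamily that is female-biased in mouse liver. A1bg (ENSMUSG00000022347, chr15:60896859-60923012, minus strand) was at 9.85, 12.0 and 11.3 in GF males and at 179.6, 114 and 46.0 in GF females. It was at 7.81 and 1.59 in CV males 1 and 2 and at 1824, 3404 and 3437 in CV females. The 4 groups did not overlap, in the order CV females, GF females, GF males and CV males, although the last 2 groups did not differ beyond the test. The reads behind the groups were 15112, 186, 28 and 17. The sex difference was -3.05 ± 0.47 (limma adjusted p = 0.00101) in GF livers and -9.18 ± 0.52 (adjusted p = 5.60e-09) in CV livers. The ratio of female to male normalized reads was 11.0 (7.34 to 16.9) in GF livers and 511 (319 to 878) in CV livers. Without CV male 1 and without CV male 2 the difference in CV livers was -10.07 and -8.30. The promoter window of A1bg was the one that held the STAT5 motif, which 8.30% of all windows hold, and the part of this motif was not tested.

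Whether the sex difference of A1bg itself differed between the conditions was tested by the interaction. It was -6.14 ± 0.70 (95% interval -7.61 to -4.66, limma adjusted p = 0.00129), the lowest value of all 11800 genes tested. Of these, 4 genes, or 0.0339%, were called for the interaction, namely A1bg, Cyp2a4, Cyp2c69 and Arl4d. In females A1bg rose by 4.80 ± 0.47 in CV relative to GF livers (limma adjusted p = 4.33e-06), 27.9-fold, the second highest value of all genes tested. In males the difference was -1.33 ± 0.52 (95% interval -2.43 to -0.23, adjusted p = 0.0687), which passed without GF female 3 (adjusted p = 0.0298) and when scaled to reads outside the abundant loci (-1.61), and which was -0.45 (adjusted p = 0.577) without CV male 2 and 0.93 (adjusted p = 0.584) with the library labelled CV male 3. The interaction was -5.34 (adjusted p = 0.768) with the share of mitochondrial ribosomal RNA as a covariate, -7.02 (adjusted p = 0.00162) without CV male 1 and -5.25 (adjusted p = 0.0437) without CV male 2. With the library labelled CV male 3, which had a value of 529.7, counted as a male, the interaction was -3.87 (adjusted p = 0.424) and did not pass, and the sex difference in GF livers was not called (adjusted p = 0.20). The sex difference in CV livers (-6.92, adjusted p = 0.045) and the rise in females (adjusted p = 0.00308) were still called.

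To ask how the 10 genes differed with microbial status, CV livers were compared with GF livers in each sex. In females 6 of 10 genes were called, with Hsd3b3, Srd5a1, Hsd17b2, Cyp17a1 and A1bg higher and Hsd3b2 lower in CV livers. This share is close to that of all genes, of which 56.2% were called, 29.9% higher and 26.2% lower. The fit with the library labelled CV male 3 called 5 of 10, without Cyp17a1, against 55.8% of all genes. Scaled to all reads, 8 of 10 genes were called higher in CV females and Hsd3b2 was not called, and over all genes the calls split into 5818 higher and 1151 lower, in place of 3534 and 3094. Scaled to reads outside the abundant loci, 4 of 10 were higher and 1 lower, and over all genes 1838 were higher and 4644 lower. The 6 called genes were also those whose libraries did not overlap, against 65% of all genes. In males 1 of 10, Hsd3b3, was called, against 25.3% of all genes and 12.1% in this direction, and 2 of 10, Srd5a1 and A1bg, did not overlap, against 50.8%. Over all genes the calls in males split into 1428 higher and 1556 lower, or 2571 and 649 when scaled to all reads and 680 and 1755 when scaled to reads outside the abundant loci. Of the 10 genes, Srd5a1 was called higher beside Hsd3b3 under the former scaling, and under the latter Hsd3b3 was not called (0.86, limma adjusted p = 0.0675) and A1bg was called lower. The median difference over the 10 genes was 1.29 in females and 0.51 in males, beside 0.07 and 0.06 over all genes tested. These medians depend on the scaling, since the median over all genes in females was 0.86 when libraries were scaled to all reads and -0.54 when they were scaled to reads outside the abundant loci. Under the 3 other scalings no called difference between conditions changed sign, and among the rest Cyp4a12a in females ran from -0.24 to 0.95.

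**Figure D3:**
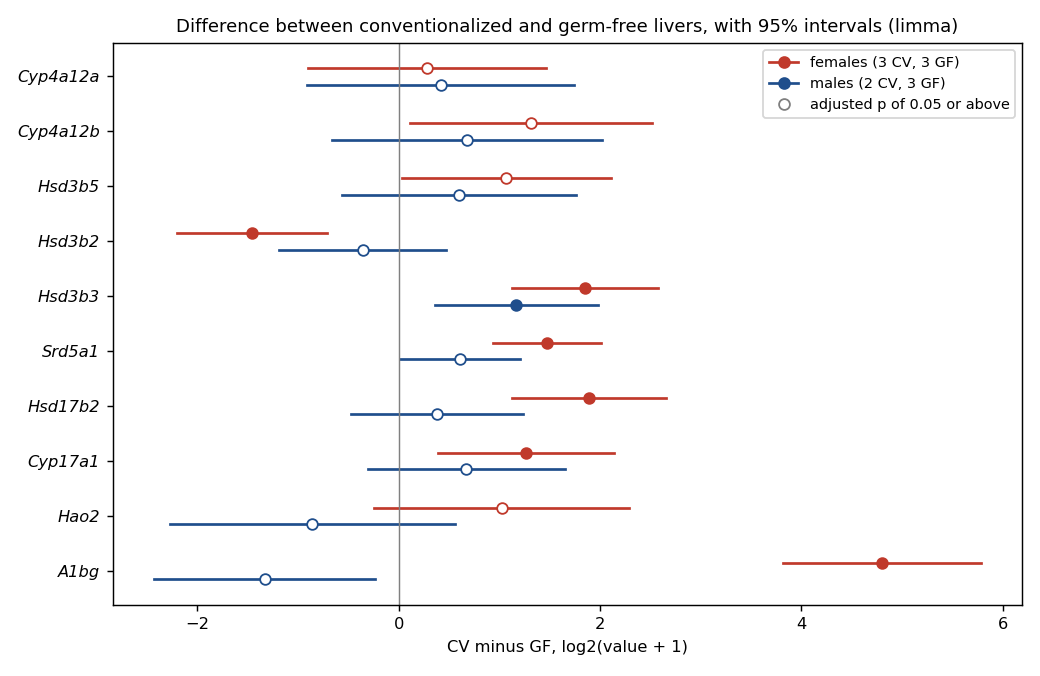
Difference between CV and GF livers in log2(value + 1) for each gene, with 95% intervals from limma, in females (red) and in males (blue, without the library labelled CV male 3). Filled points have an adjusted p below 0.05. A1bg lies at 4.80 in females and -1.33 in males, and Hsd3b2 at -1.46 in females.

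Marker genes of liver cell types were summed in each library. Hepatocyte markers, 10 of 10 of which were tested, summed to 118249 to 336758 in GF females and to 556266 to 752652 in CV females, and 6 of them were called, all higher in CV females, with a median difference of 1.36. In males the same sums were 236375 to 526207 and 432430 to 536949, with a median difference of 0.33. Between the sexes the median of the 10 markers was 0.52 in GF and -0.29 in CV livers. Of 8 tested Kupffer and myeloid markers, 4 were higher in CV females, against 29.9% of all genes, and 3 in CV males, against 12.1%. Of 8 stellate cell markers, 3 were higher in CV males, against 12.1% of all genes, and in CV females 1 was higher and 1 lower. Of 8 endothelial markers, 2 were lower in CV females, against 26.2% of all genes. In CV males 1 endothelial marker was lower, with 25.3% of all genes called in either direction. Of 5 tested bile duct markers, 0 were called between conditions. The share of reads from mitochondrial ribosomal RNA was 9.36 to 16.4% in GF and 1.39 to 6.32% in CV libraries. As a covariate, this share left none of the 10 genes called between conditions. Between the sexes in GF livers Hsd3b5 (4.48, limma adjusted p = 0.0639), Srd5a1 (1.77, adjusted p = 0.201), Cyp17a1 (-1.52, adjusted p = 0.537), Hao2 (-1.50, adjusted p = 0.594) and A1bg (-3.61, adjusted p = 0.139) then did not pass, and Cyp4a12a and Cyp4a12b did, while in CV livers 6 of 10 genes were called. Most of the variance of this share lies between the groups, so share and condition cannot be told apart. The part of the cell type markers in the condition results was not tested, and in bulk tissue fewer cells of a type and less RNA per cell cannot be told apart.

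Between genes, levels were compared as the mean normalized value per kilobase of exon. The length used was that of all annotated exons of a gene, which was 6396 bases for Hsd3b3. The 5 transcripts of Hsd3b3 searched for shared stretches held 1710 stretches of 50 bases, so a shorter length may apply to it. Its values on this scale may therefore be too low, and its place in, or absence from, the orders below is uncertain. In GF males the order was Cyp4a12a (793 ± 210, SD, n = 3), Hsd3b5 (622 ± 327), Hsd17b2 (485 ± 232), Cyp4a12b (269 ± 43.6) and Srd5a1 (189 ± 32.5), and neighbours up to Hsd17b2 differed by less than their spread. In CV females it was A1bg (1203 ± 384), Hsd17b2 (836 ± 98.1), Cyp17a1 (209.9 ± 15.8), Srd5a1 (138 ± 15.3) and Hsd3b3 (129.6 ± 4.5), of which A1bg and Hsd17b2, and Srd5a1 and Hsd3b3, differed by less than the larger of their SDs. The highest mean per length was that of an omega-hydroxylase in GF males and of a plasma protein in CV females. Neither was separated from the next gene beyond the spread. Cyp4a12a was at 2.30 ± 0.77 in GF females on this scale and A1bg at 4.61 ± 0.45 in GF males.

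The library labelled CV male 3 was nearer to the mean of the CV females than to that of CV males 1 and 2 in 9 of 10 genes, on the log2(value + 1) scale. Its values were 0.909 (1 read) for Cyp4a12a, 0 for Cyp4a12b, 28.2 for Hsd3b5, 53.6 for Hsd3b2, 484 for Hsd3b3 and 324 for Srd5a1. The first 3 lay below every other CV library, as did Hsd3b3 and Srd5a1, and Hsd3b2 lay within the range of the CV females. It was at 789.5 for Cyp17a1, 36.3 for Hao2, 529.7 for A1bg and 1173 for Hsd17b2. Cyp17a1 was thus above every other CV library, Hao2 and A1bg lay between the sexes, and Hsd17b2 lay within the range of the CV males. For Cyp4a12b, 0 reads among 8890529 allow up to 3 reads by counting error. Its values lay outside the range of the CV females in 9 of 10 genes.

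**Figure D4:**
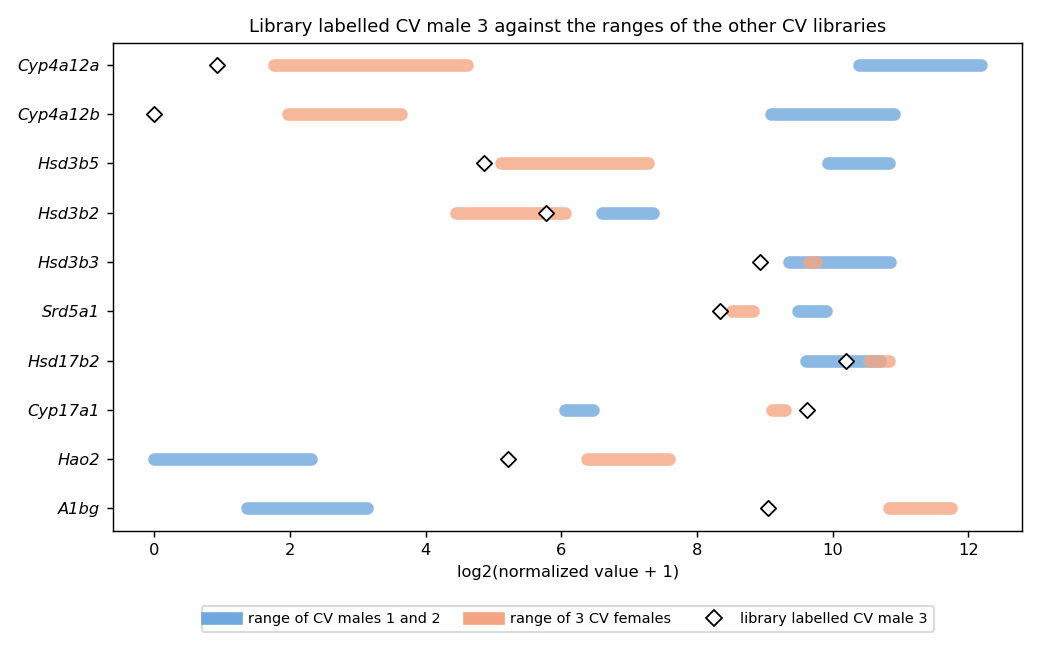
Values of the library labelled CV male 3 (open diamonds) for each gene as log2(normalized value + 1), beside the range of CV males 1 and 2 (blue bars) and of the 3 CV females (orange bars). The diamond is nearer to the female mean in 9 of 10 genes, and in 8 of 10 genes the bars do not overlap.

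Other enzymes of the same pathways are given by their counts and medians, beside medians over all tested genes of 0.03 and 0.01 between the sexes in GF and CV livers and of 0.07 between conditions in females. Of 7 tested 17-beta-hydroxysteroid dehydrogenases besides Hsd17b2, 1 was called higher in GF males (Hsd17b10, 1.83 ± 0.27, limma adjusted p = 8.33e-04) and 1 lower in CV males (Hsd17b6, -2.08 ± 0.42, adjusted p = 0.0237), with medians of 0.49 and -0.05, whereas 6 were higher in CV than in GF females, with a median of 1.75. Of 11 other steroid reductases and hydroxylases, 1 was called between the sexes, Cyp7b1, the oxysterol 7-alpha-hydroxylase, which was higher in males in both conditions (4.64 ± 0.35 in GF and 3.38 ± 0.39 in CV livers). The medians of these 11 were 0.42 and -0.05, and 11 of 11 were higher in CV females, with a median of 1.76. Of 11 other Cyp4 genes, 1 was lower in GF males, Cyp4a14 (-1.88 ± 0.40, adjusted p = 0.0193), the opposite direction to Cyp4a12a, and 6 were higher in CV females, with a median of 0.90. Of 8 peroxisomal oxidases, 1 was higher in GF males (Hao1, 1.64 ± 0.37, adjusted p = 0.0272), the opposite direction to Hao2, and 8 of 8 were higher in CV females, with a median of 1.16. Cyp7b1 in CV livers (2.27, limma adjusted p = 0.499), Hsd17b6 (-1.58, adjusted p = 0.499) and Hao1 (adjusted p = 0.0593) were not called with the library labelled CV male 3 as a male. Hsd3b7, a bile acid enzyme and the 1 other Hsd3b gene that passed the filter, was called in no comparison. Of all genes, 29.9% were higher in CV females. Between the sexes, 2.29% of all genes were called in GF and 0.653% in CV livers.

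Other genes known to be sex-biased in mouse liver were described by the same counts. Of 18 tested male-biased genes, 13 were called in GF and 8 in CV livers, all higher in males. Of all tested genes, 1.66% and 0.373% were called higher in males. The medians of the list were 2.93 and 1.97. Of 28 tested female-biased genes, 21 were called in GF and 18 in CV livers, all lower in males. Of all tested genes, 0.627% and 0.28% were called lower in males. The medians of this list were -2.70 and -3.35. No gene of either list passed in CV livers with the library labelled CV male 3 as a male. In females 9 of the male-biased genes were higher and 2 lower in CV livers, and 11 of the female-biased genes were higher and 5 lower, against 29.9% and 26.2% of all genes. These counts were 7 and 1, and 7 and 2, with the library labelled CV male 3. Of 17 genes of growth hormone signaling and its regulators, Cux2 (-6.06 ± 0.46 in GF and -5.60 ± 0.51 in CV livers) and the estrogen receptor gene Esr1 (-1.55 ± 0.31 and -1.58 ± 0.34) were lower in males in both conditions. In CV relative to GF livers, Cux2 was lower in both sexes (-2.22 ± 0.46 in females, limma adjusted p = 7.26e-04, and -1.76 ± 0.51 in males, adjusted p = 0.0218). Socs2, a feedback inhibitor induced by growth hormone, was lower too, at -2.31 ± 0.54 in females and -2.89 ± 0.60 in males. The list did not move as one, since 3 of the 17 genes were higher and 3 lower in CV females, against 56.2% of all genes called. In CV males 0 were higher and 2 lower, against 25.3% of all genes called. These counts were 3 and 2 in females and 1 and 2 in males with the library labelled CV male 3. When the library labelled CV male 3 was a male, Cux2 was called between the sexes in GF livers, but not in CV livers (-3.95, limma adjusted p = 0.268) nor between conditions in females (adjusted p = 0.0521) or in males (-0.10, adjusted p = 0.945). Esr1 was then called in neither condition (adjusted p = 0.0686 in GF livers, and -0.98 with adjusted p = 0.928 in CV livers), while Socs2 was still called in females (adjusted p = 0.0104) and in males (-1.98, adjusted p = 0.0433). The lists were drawn from general knowledge with earlier results of these libraries known, and so are no independent evidence of direction.

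The genes whose pattern over the 11 libraries was most like that of Hsd3b5 were Mup9 (Pearson r = 0.984), Mup14 (r = 0.984) and Ugt2b1 (r = 0.979) among all tested genes besides the 10. Those most like A1bg were Cyp2c69 (r = 0.978), Cyp2c40 (r = 0.955) and Cyp2a4 (r = 0.953), and Cyp2c69 and Cyp2a4 were also among the 4 genes called for the interaction. Their values were -3.38 ± 0.57 (limma adjusted p = 0.0459) for Cyp2c69 and -4.07 ± 0.60 (adjusted p = 0.0182) for Cyp2a4, and with the library labelled CV male 3 they were -1.60 (adjusted p = 0.597) and -1.52 (adjusted p = 0.714), neither of them called. These correlations describe libraries that share the group structure, the depth and the scaling, and the Mup genes are near-identical copies whose reads may be divided arbitrarily.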

How the data were processed

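RNA from 12 livers was sequenced as stranded poly(A)-selected libraries. The deposited values are a signal for each gene, namely read counts that the authors had divided by 1 size factor per library. Within 0.01 reads, 100% of them came out as whole reads once multiplied back, so counts could be recovered. The submitters' processing notes name HTSeq 0.6.1p1, DESeq2 and build GRCm38, while the aligner and the annotation are not given in the sources used here. The study described in the paper linked to the series is another experiment, so no method was taken from it. Groups came from the sample titles. The planned fallback for normalized values was used: limma 3.58.1 on log2(value + 1), genes of mean value of at least 10, 1 mean per group in 11 libraries, a variance trend and Benjamini-Hochberg adjustment at 0.05. Ratios of normalized reads pool the libraries of a group, so deeper libraries weigh more, and carry exact binomial 95% intervals. These intervals cover counting error only, as does the limit of 3 reads for a count of 0. The labels describe separate mice without naming cages or batches. Each result was recomputed under 25 planned settings and 1 added later, with edgeR 4.0.16, DESeq2 1.42.0 and limma-voom among them, and the scripts were tested on simulated data. Named were all 10 genes, at most 3 called genes per direction of each pathway list, and the 3 genes most like Hsd3b5 and the 3 most like A1bg. The 10 genes and all lists were chosen with earlier results of these data known.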

Additional observations from a re-analysis of the deposited data

Results flagged for a closer look

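The library labelled CV male 3 stood apart from the other 5 libraries labelled male by Dixon's test in 4 of the 10 genes on the log2(value + 1) scale. Its values were 28.2 for Hsd3b5, 0.909 for Cyp4a12a, 0 for Cyp4a12b and 529.7 for A1bg. Of 20 sets tested (10 genes in 6 libraries labelled male and in 6 labelled female), these 4 stood out. A rate of about 1 in 20 by chance holds for independent sets, which these are not. All 4 flags fall on 1 library, and the genes are correlated (r = 0.984 for Cyp4a12a with Cyp4a12b over 11 libraries). The genes were also chosen as sex-biased, so the flags are no evidence apart from the sex markers. The same library had 0 Y-linked reads and an Xist value of 2382.

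The sex difference of A1bg differed between GF and CV livers, with an interaction of -6.14 ± 0.70 on the log2 scale (limma adjusted p = 0.00129). With the library labelled CV male 3 as a male it was -3.87 (adjusted p = 0.424).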

How the results depend on the processing

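Over all alternatives, 1226 of the results on single genes kept their side of the threshold, 40 lost the call and 32 gained one. A further 2, called in the main fit, changed sign. Changes of sign where neither the main nor the alternative result was called are counted among the 1226, as for Cyp4a12a between conditions in males. With the library labelled CV male 3, genes of the 10 called were 1 (sex, CV), 0 (condition, males) and 0 (interaction), with 7 and 0 genes of all for sex in CV livers and the interaction (1382 at an unadjusted p under 0.05 for the latter). With the share of mitochondrial ribosomal RNA as a covariate, 94.9% of whose variance lies between the groups, the 10 genes gave 2 calls (sex, GF) and 0 for the condition in females, the condition in males and the interaction, and all genes gave 33, 0, 0 and 1 (868 and 932 at an unadjusted p under 0.05 in females and males); Hsd3b3 changed sign, to -1.04 in females and -0.27 in males, and whether share or condition matters cannot be told apart. For the condition in males, the 10 genes gave 0 calls with no filter and 2 when scaled to all reads or in edgeR with no filter. Over all genes, scaling to all reads gave 1404 (sex, GF) and 12 (interaction), edgeR with no filter 588, 211 (sex, CV) and 64, DESeq2 491, 155 and 20, edgeR with filterByExpr 125 and limma-voom 132 (sex, CV), and no filter 1 (interaction). For these counts the cause was not tested.

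Leaving out 1 library gave 7 to 8, 5 to 7, 6 to 8, 0 to 2 and 1 to 1 of the 10 genes for sex in GF and CV livers, the condition in females and males, and the interaction, and 119 to 908, 56 to 101, 5546 to 6866, 135 to 3655 and 1 to 6 of all genes. The extremes 119 and 908 came without GF male 2 and GF female 2, 135 without CV male 1, and a lone CV male is assumed to vary like the other groups.

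With the replicate number as a block, 0 of the 10 genes were called for the condition in males (Hsd3b3, limma adjusted p = 0.0621) and 7 genes for the interaction, while Hsd3b2 (sex, CV, adjusted p = 0.0467) and Hsd3b5 (condition, females, adjusted p = 0.0377) gained a call. The block combined with the library labelled CV male 3, chosen after seeing the data, gave 1 (sex, CV), 0 and 0 of the 10 genes and 8 and 0 of all genes. Of 15 same-numbered pairs 4 had a correlation over 0.1 (-0.217 to 0.403), as had 8 of 30 differently numbered pairs (-0.408 to 0.387). With so few libraries per group, deviations from a group mean are tied to each other. The check therefore cannot decide whether the numbers pair the mice. In GF livers the low reads of Cyp4a12a, Cyp4a12b and Hao2 in the sex of low expression limit their precision.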
